A study of Rattus norvegicus with 15 samples.

Results

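Microglia are the resident macrophages of the brain, and complement is a cascade of blood and tissue proteins that tags material for removal. Microglia make the C1q chains that start the classical complement pathway, C1q with its proteases leads to cleavage of C3, and C1 inhibitor, the product of Serping1, blocks those proteases. The 8 genes described here were 6 that are common microglial markers (Ctss, Cx3cr1, C1qb, C1qc, Cd74 and Aif1) and 2 complement genes that other cells also make (Serping1 and C3). They were taken by gene symbol from the platform annotation, which gave them 17 of 8740 probe sets, each of them several short probes read together as a signal. The set was chosen by symbol with the signals of these same SNc and VTA arrays and their differences, as log2(signal + 16), already known. The difference between regions is therefore given here as a description, and nothing rests on it. The question asked of the data was whether Serping1 follows the microglial genes.

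The samples were rat midbrain neurons cut out of tissue by laser capture. There were 8 arrays of the substantia nigra pars compacta (SNc), numbered 1 to 8, and 7 of the ventral tegmental area (VTA), numbered 1 to 6 and 8. Total RNA was measured on an Affymetrix rat array, and the labels give no strain, sex, age or treatment for either region. They also do not say how many animals were used, whether captures were pooled, or how neurons were recognised, so the spread between arrays may in part be technical and p-values measure that spread alone. Signals are the authors' linear intensities, already at a common trimmed mean, and each difference is the SNc mean less the VTA mean of log2(signal + 16).

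The captures held dopamine neuron RNA, with Th, which makes the dopamine precursor, at 5893 to 7355 in SNc and 5967 to 8171 in VTA. Median signal per array ran from 38.0 to 46.8, and no pair of arrays held the same values (highest correlation 0.973). VTA 3 stood apart in markers of other cells. Its summed signal for 21 genes of vessels, pericytes and meninges was 6166, against 1596 to 2556 in the other VTA arrays, and its sum for 23 genes of microglia and macrophages was 3046, against 1543 to 2332. Differences of members and correlations of Serping1 that VTA 3 moved most are given with and without it. Correlations between other members and differences of listed genes are not given with VTA 3 alone left out. As precision is set by the number of arrays, no interval here covers anything but the spread between them.

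Of the 6 microglial genes, 3 were measured by dim probe sets alone. A filter left out the dimmest 40% of probe sets by mean, those below a signal of about 26.3, and 4 of the 17 member probe sets passed it. These were the only probe sets of Ctss, Cx3cr1 and Serping1 and 1 of the 3 of C1qc. All probe sets of C1qb (2), Cd74 (4), Aif1 (3) and C3 (2) lay below it. No detection calls were used, so a low signal cannot be told apart from no signal. In tissue of this kind, fewer microglia and less RNA per microglial cell cannot be told apart either. The signal of the brightest probe set of each gene, plotted for every array, shows these levels.

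**Figure D1:**
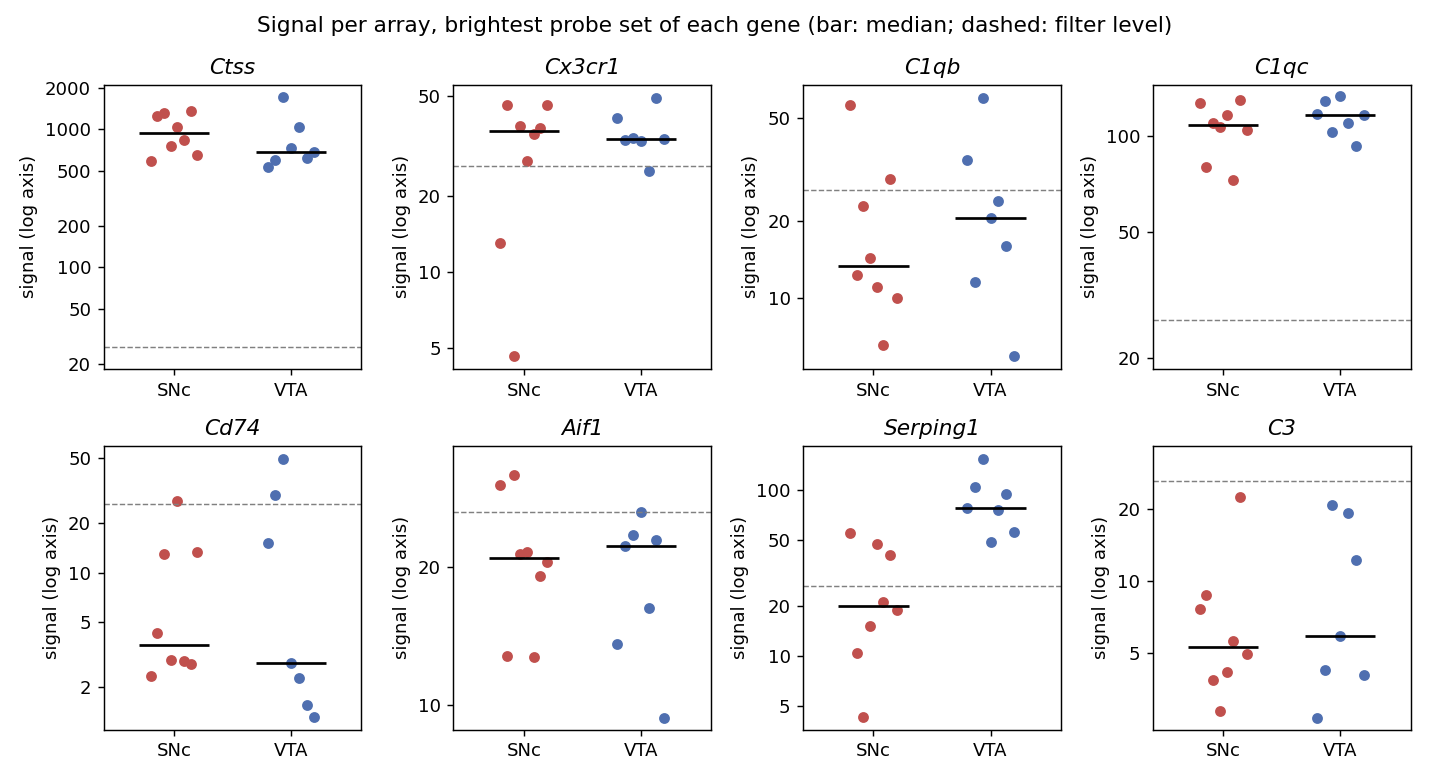
Signal of the brightest probe set of each of the 8 genes on the 8 SNc and 7 VTA arrays (vertical log axes, which differ between panels; each point is an array, the bar is the median, and the dashed line is the filter level of 26.3). Every Ctss and C1qc point lies above the line and every C3 point below it, while all 7 VTA points of Serping1 and 3 of its 8 SNc points lie above it.

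Ctss encodes cathepsin S, a lysosomal protease with which antigen-presenting cells trim peptides and the invariant chain. Its signal ran from 588.5 over a median of 934.9 to 1363 in SNc, and from 531.2 over 680.6 to 1696 in VTA. The regions overlapped over nearly the whole range, and the highest value of all was that of VTA 3. The difference was 0.25 (SE 0.24, 95% interval -0.26 to 0.76), and it was 0.43 (SE 0.21) without VTA 3 and 0.16 without VTA 1. Cx3cr1, the receptor for the neuronal chemokine fractalkine, had 4.64, 36.2 and 45.9 as lowest, median and highest signal in SNc, and 25.1, 33.6 and 49.0 in VTA. All but 2 SNc arrays lay within the VTA range. SNc 3 and SNc 1, at 4.64 and 13.1, were below it, and the difference was -0.21 (SE 0.21, interval -0.65 to 0.24). Without SNc 3 it was -0.05.

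C1qb and C1qc encode chains of C1q, the molecule that recognises targets and starts the classical pathway. The C1qc probe set that passed the filter was even across arrays, with lowest, median and highest signals of 72.5, 108.2 and 129.7 in SNc and 93.3, 116.5 and 133.7 in VTA. The difference was -0.11 (SE 0.14, interval -0.40 to 0.17), and -0.05 without SNc 6. The other C1qc probe sets target the same deposited transcript sequence and carry the suffixes that mark relaxed design rules. They read between 0.725 and 2.43 in SNc and between 0.997 and 2.70 in VTA, so a signal near 100 for this gene rests on 1 of 3 probe sets. The bright probe set carries a suffix too (_s), as does the brightest of Aif1, and whether either reads its gene alone was not checked. The brighter C1qb probe set had 6.61, 13.3 and 56.1 in SNc and 5.97, 20.5 and 60.04 in VTA. Its 2 highest values were SNc 1 and VTA 3, and the regions overlapped.

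Cd74 and Aif1 were close to the bottom of the range on most arrays. Cd74, the invariant chain of MHC class II, had 2.33, 3.62 and 27.3 in SNc and 1.32, 2.81 and 49.7 in VTA by its brightest probe set. SNc 5, VTA 2 and VTA 3 were the arrays above the filter level, and the 3 other probe sets stayed between 1.90 and 7.23 on every array. Aif1, the calcium-binding protein Iba1 that is widely used to stain microglia, had 12.7, 20.9 and 31.9 in SNc and 9.37, 22.2 and 26.4 in VTA. Its probe set U10894_s_at was uneven, at 74.2 in VTA 3 and 49.6 in SNc 3 and as low as 2.47 in VTA 1. With all arrays in, the differences of the 13 dim member probe sets lay between -0.19 and 0.08, and their intervals all spanned 0. Single arrays moved several of them. Without VTA 3 the difference was 0.03 in place of -0.19 for the brightest Cd74 probe set, 0.01 in place of -0.15 for that of C1qb, and 0.18 in place of -0.07 for U10894_s_at of Aif1. Without SNc 5 it was -0.31 for that Cd74 probe set, without SNc 1 it was -0.31 for that of C1qb, and without SNc 3 it was -0.23 for U10894_s_at. The 0.08 of the brightest Aif1 probe set was 0.01 without VTA 8.

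Complement C3, the protein on which all complement routes converge, had 2.86, 5.30 and 22.5 in SNc and 2.69, 5.89 and 20.7 in VTA. High values were scattered over SNc 7, VTA 3 and VTA 5. With its second probe set at 1.36 to 7.18 in SNc and 2.41 to 17.5 in VTA, no array reached the filter level by either. Its differences were -0.12, or -0.03 without VTA 3 and -0.23 without SNc 7, by the brighter probe set, and -0.17, or -0.06 without VTA 5, by the other.

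Serping1 was measured by 1 probe set. The signal was 54.9 in SNc 1, 10.5 in SNc 2, 4.32 in SNc 3, 15.2 in SNc 4, 47.0 in SNc 5, 21.2 in SNc 6, 40.7 in SNc 7 and 19.0 in SNc 8. In the VTA it was 78.1, 103.6, 153.6, 48.8, 75.4 and 94.0 in VTA 1 to 6 and 55.7 in VTA 8. Every SNc array lay below every VTA array except that SNc 1 exceeded VTA 4. The mean was 26.6 ± 18.5 in SNc and 87.0 ± 35.2 in VTA (SD, n = 8 and 7), a mean 3.27 times as high in VTA. On the log2(signal + 16) scale the difference was -1.33 (SE 0.26, interval -1.88 to -0.78), and -1.20 (SE 0.26) without VTA 3. Because the offset shrinks the differences of dim probe sets, this size depends on it, and the signal in 5 of 8 SNc arrays was below 26.3.

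In limma, a linear model fitted to all 5244 probe sets past the filter, 1 of the 4 member probe sets tested, Serping1, passed an adjusted p of 0.05 and was higher in VTA. Over all probe sets 1.98% passed, 1.14% with higher signal in VTA and 0.839% with higher signal in SNc. The member count is read no further, since the genes were picked with it known. The filter used the mean over all 15 arrays, and Serping1 passed it through its VTA signal. Its signal was above the filter level in 7 VTA arrays but in only 3 of 8 SNc arrays (SNc median 20.1). In the fit with no filter its adjusted p was 0.027 in limma. The arrays of the regions did not overlap in 0.858% of all probe sets tested and in 0 of the members'. Before adjustment, 810 probe sets, or 15.4%, had a p under 0.05, which is the share against which the gene lists described further on are to be read.

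**Figure D2:**
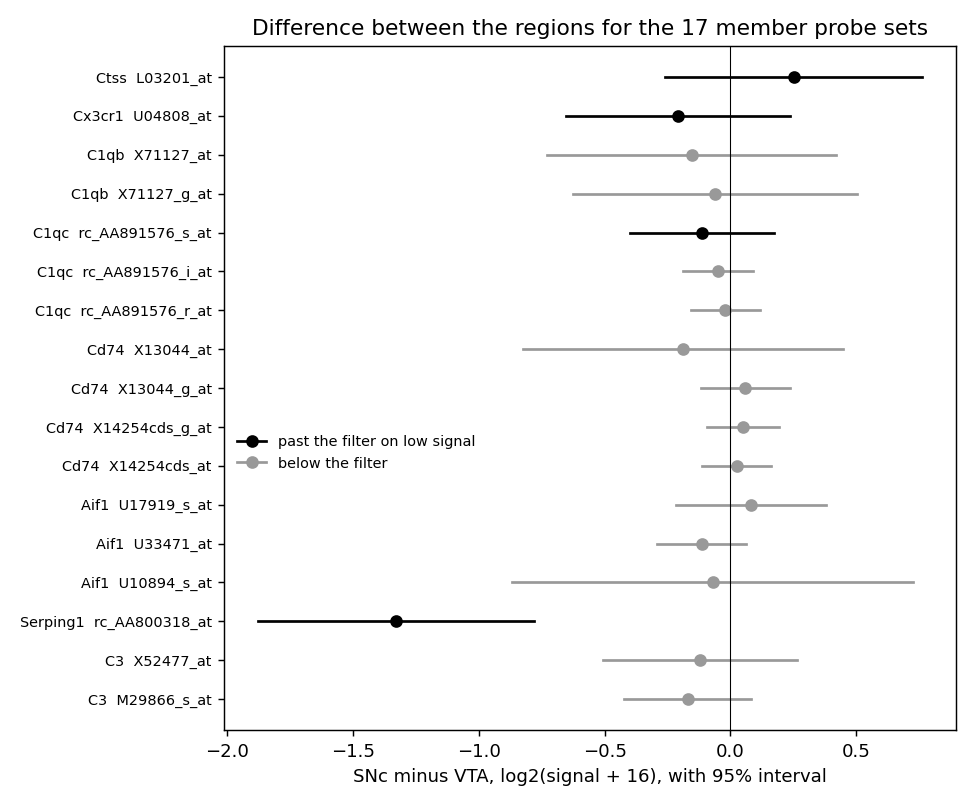
Difference SNc minus VTA in log2(signal + 16) for each of the 17 member probe sets, with limma's 95% interval (horizontal axis; black: past the filter on low signal; grey: below it, taken from the fit with no filter). The interval of Serping1, -1.88 to -0.78, lies to the left of 0, and the 16 others span 0.

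Whether Serping1 follows the microglial genes was asked within each region, where the difference between regions plays no part. Pearson's r between log2(signal + 16) values was tested by exact permutation (two-sided) for all 28 pairs of the 8 genes in both regions, 56 relations in all, with Benjamini-Hochberg adjustment. None passed an adjusted p of 0.05, and 4 had an unadjusted p under 0.05 (2 by Spearman's rho, also with 0 after adjustment). Of the 14 relations of Serping1, 1 had an unadjusted p under 0.05. A correlation of 7 or 8 arrays is imprecise, so these values do not show that the genes vary independently.

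In SNc, r of Serping1 was -0.32 with Ctss, 0.07 with Cx3cr1, 0.43 with C1qb, 0.53 with C1qc, 0.01 with Cd74, 0.11 with Aif1 and 0.38 with C3. The exact permutation p of these ran from 0.1825 to 0.9765. Single arrays decided several of these values. Without SNc 3, r was -0.80 with Cx3cr1 (exact permutation p = 0.00774, adjusted p = 0.331), 0.69 with Aif1, 0.74 with C1qc and -0.09 with Ctss. Without SNc 1 it was -0.02 with C1qb, and without SNc 5 it was -0.59 with Cd74. Among the SNc arrays, SNc 3 had the lowest Serping1 signal and the second-highest of Ctss (4.32 and 1319), while SNc 1 had the highest Serping1 signal and the lowest of Ctss (54.9 and 588.5). In VTA, r was 0.52 with Ctss, 0.16 with Cx3cr1, 0.59 with C1qb, -0.52 with C1qc, 0.36 with Aif1 and 0.54 with C3. VTA 3 was the highest VTA array for 5 of the 8 genes, namely Serping1, Ctss, C1qb, Cd74 and C3. Without VTA 3, r in VTA was -0.30 with Ctss, 0.07 with C1qb and 0.17 with C3. Leaving out other arrays raised some values. Without VTA 2, r was 0.75 with C1qb, and without VTA 5 it was 0.71 with C3. With Aif1 it was 0.87 without VTA 4 and 0.07 without VTA 8.

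The closest relation of Serping1 was with Cd74 in VTA (r = 0.81, exact permutation p = 0.0236, adjusted p = 0.441, rho = 0.64, exact permutation p = 0.139, adjusted p = 0.862). Without the 2 arrays farthest from the Cd74 median r was 0.22, so the relation rested on those arrays, and without VTA 3 it was 0.59. Without VTA 6 it was 0.93 (exact permutation, adjusted p = 0.194). In SNc the same pair gave 0.01. Cd74 was above the filter level in VTA 2 and VTA 3 alone among the VTA arrays, and these were also the arrays with the highest Serping1 signals.

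The pairs of microglial genes had r of both signs. Over their 15 pairs, r ran from -0.82 to 0.75 in SNc, with a median of -0.10 and 6 pairs positive. In VTA it ran from -0.46 to 0.65, with a median of 0.03 and 8 pairs positive. Over the 7 relations of Serping1 with the other members, the median was 0.11 in SNc and 0.52 in VTA, with 6 positive in each. By these medians Serping1 went with the other members no less than the microglial genes went with each other. The difference between the medians was not tested, and several r of Serping1 rested on single arrays. The 2 C1q chains, which are joined in 1 protein, had r = 0.70 in SNc (exact permutation p = 0.0532, adjusted p = 0.596, rho = 0.79, exact permutation p = 0.0279, adjusted p = 0.862) and 0.75 without the 2 arrays farthest from the C1qc median. In VTA they had r = -0.28. Aif1 ran with both chains in SNc, with r = 0.75 with C1qc (exact permutation p = 0.0373, adjusted p = 0.522, rho = 0.57, exact permutation p = 0.151, adjusted p = 0.862), or 0.78 without the 2 arrays farthest from the Aif1 median, and r = 0.68 with C1qb (exact permutation p = 0.0670, adjusted p = 0.626). In VTA these were -0.0035 and 0.34. Cx3cr1 and Aif1 ran in opposite directions in SNc (r = -0.82, exact permutation p = 0.0127, adjusted p = 0.356, rho = -0.69, exact permutation p = 0.0694, adjusted p = 0.862), and without the 2 arrays farthest from the Aif1 median r was -0.84. In VTA their r was 0.14. The highest r of all 56 relations was that of Ctss with C3 in VTA (r = 0.85, exact permutation p = 0.0127, adjusted p = 0.356, rho = 0.82, exact permutation p = 0.0341, adjusted p = 0.862). Without the 2 arrays farthest from the C3 median it was 0.27, and in SNc the same pair gave 0.42.

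**Figure D3:**
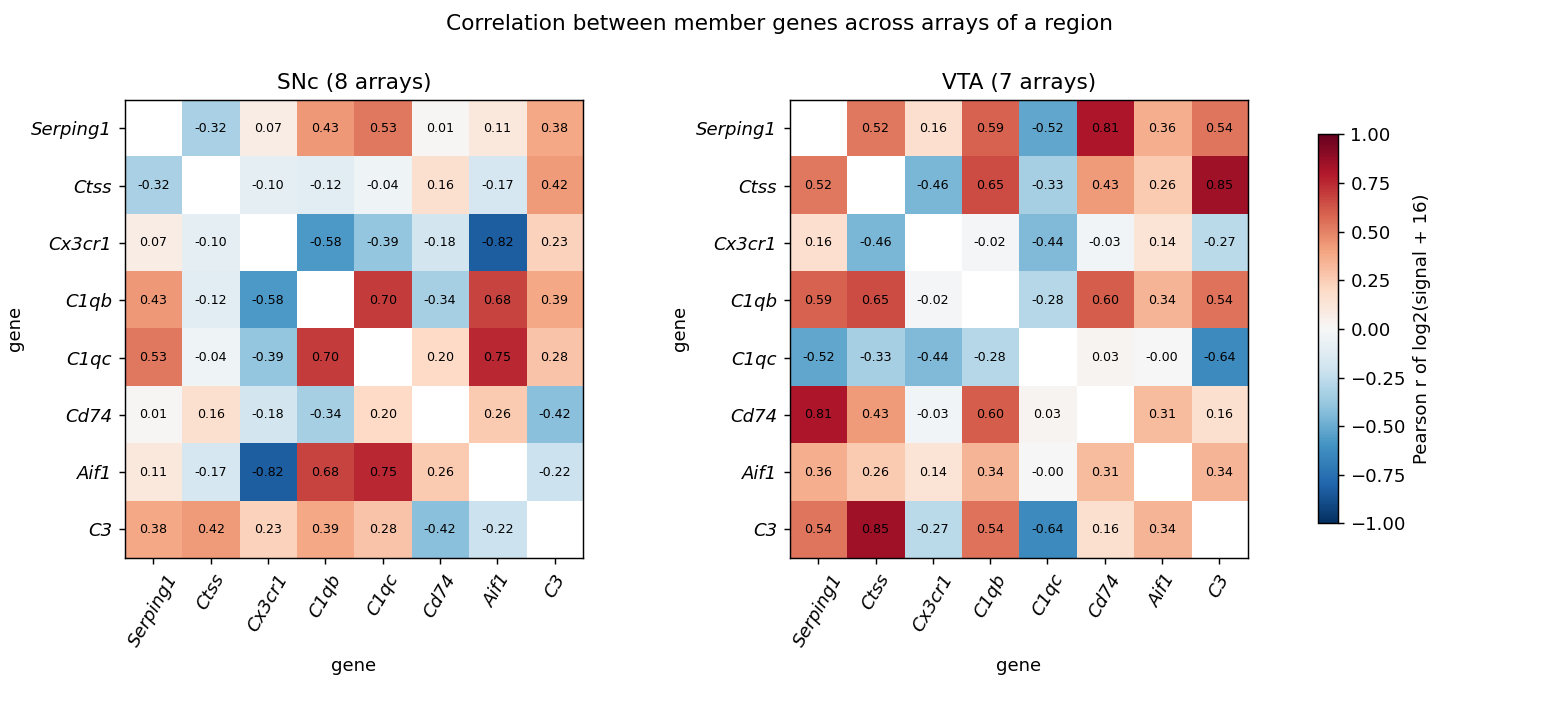
Pearson's r of log2(signal + 16) between the 8 genes over the 8 SNc arrays (left) and the 7 VTA arrays (right), with the gene on each axis and the colour giving r from -1 to 1. The row of Serping1 runs from -0.32 to 0.53 in SNc and from -0.52 to 0.81 in VTA.

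Probe sets of the same gene went together unevenly. In SNc, r between the brightest probe set and another one of its gene was 0.26 for C1qb, 0.79 and 0.67 for C1qc, 0.33 and 0.24 for Aif1, and 0.82 for C3. For Cd74 it lay between -0.46 and 0.45. In VTA it was 0.54 for C1qb, -0.78 and 0.18 for C1qc, 0.41 and 0.32 for Aif1, and 0.62 for C3, and between -0.72 and 0.81 for Cd74. Some of these other probe sets went with Serping1 in SNc more closely than the brightest ones did. Its r was 0.94 and 0.81 with the dim C1qc probe sets, 0.82 with the Cd74 probe set X14254cds_at, 0.73 with the second C3 probe set and -0.72 with U10894_s_at of Aif1. In VTA the same 5 gave 0.02, 0.66, -0.45, -0.12 and 0.51. The first 4 of them read at most 7.18 on any SNc array, so these r describe variation far below the filter level, and they were not adjusted as a family.

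Serping1 moved with the array median in SNc, while the 2% trimmed mean of every array was 150.2. The 3 SNc arrays with its highest signals, SNc 1, SNc 5 and SNc 7, had the highest median signals of that region, at 43.4, 45.3 and 44.97. The 3 with its lowest signals, SNc 2, SNc 3 and SNc 4, had the lowest, at 38.2, 38.2 and 38.0. Among the 16 relations of the 8 genes with the array median, chosen after the data were seen, r of Serping1 was 0.90 in SNc (exact permutation p = 0.00523, adjusted p = 0.0419, rho = 0.81, exact permutation p = 0.0218, adjusted p = 0.174). Without the 2 arrays farthest from the middle median it was 0.85 (exact permutation p = 0.0167). In VTA it was 0.43 (exact permutation p = 0.327). The share of all probe sets with an r as high against the array median was not worked out. A relation with the array median is therefore not shown to be particular to any member.

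The other gene to pass in this family was Aif1 in VTA, with r = 0.99 (exact permutation p = 0.000595, adjusted p = 0.00952, rho = 0.96, exact permutation p = 0.00278, adjusted p = 0.0444), or 0.96 without the 2 arrays farthest from the middle median. In SNc its r was 0.12. Ctss had r of -0.10 in SNc and 0.28 in VTA. When the array median was added to the model as a covariate, the difference of Serping1 was -0.68 (SE 0.24, interval -1.19 to -0.18). It then missed the adjusted threshold, at which 31 probe sets passed in place of 104. The array median was 38.0 to 45.3 in SNc and 42.3 to 46.8 in VTA, and its part in the difference was not tested beyond these values.

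**Figure D4:**
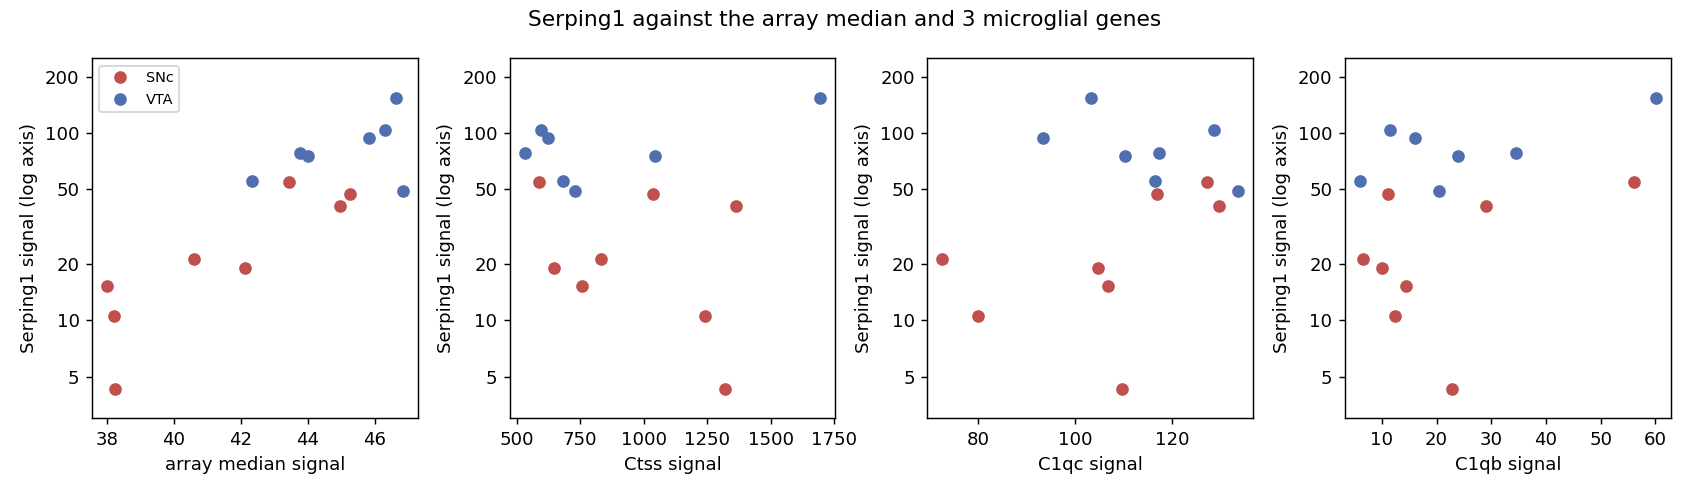
Serping1 signal (vertical log axis) on each of the 8 SNc and 7 VTA arrays against the median signal of the array and the signals of Ctss, C1qc and C1qb (horizontal linear axes). Serping1 is higher on SNc arrays with a higher median (r = 0.90), and the panels of the 3 genes show no relation that passed.

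The wider complement list, which holds components, receptors and regulators, showed no common direction. Of 44 genes listed, 23 were on the array and 11 passed the filter, with 5 higher and 6 lower in SNc and a median difference of -0.08, against -0.04 over all genes tested. Serping1 was the 1 gene of the list that passed the threshold. Vtn, vitronectin, which keeps the terminal complex from inserting into membranes, had 44.6 ± 31.3 in SNc and 76.6 ± 22.2 in VTA (difference -0.74, SE 0.28, adjusted p = 0.19 in limma). C1r, a protease that C1 inhibitor blocks, had 58.3 ± 39.2 in SNc and 40.3 ± 38.8 in VTA (difference 0.47, SE 0.34), and its partner C1s was below the filter. C5ar1, the receptor of the C5a fragment, differed by -0.60 by a dimmer probe set and by 0.01 by the brighter one.

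C1 inhibitor also blocks proteases of the contact system, which releases bradykinin. Of 8 genes of that pathway and of clotting on the array, 3 passed the filter and 0 passed the threshold by their brightest probe set in limma, with 2 at an unadjusted p under 0.05, against 15.4% of all probe sets. Plat, tissue plasminogen activator, had 30.5 ± 15.2 in SNc and 63.3 ± 34.8 in VTA (difference -0.72, SE 0.24). Bdkrb1, the bradykinin B1 receptor, differed by -0.49 (SE 0.22) by its brighter probe set. Its dimmer probe set, given after its values were seen, had 18.3 ± 5.01 in SNc and 72.6 ± 29.2 in VTA, with no overlap, and passed (difference -1.30, SE 0.21, adjusted p = 0.00154 in limma). Its SNc mean was below the filter level of 26.3, so it was tested through its VTA signal, and its call is a description. Of 8 serpins, the inhibitor family of Serping1, 4 were higher and 4 lower in SNc, with Serpina1 next after Serping1 (difference 0.42, SE 0.20).

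None of the 11 microglia and macrophage genes that passed the filter, each by its brightest probe set, passed the threshold in limma. Before adjustment 3 of the 11 fell under 0.05, against 15.4% of all probe sets. These were Cd14, a receptor for bacterial lipopolysaccharide (63.1 ± 15.1 in SNc and 100 ± 25.2 in VTA, difference -0.54), Alox5ap, which serves leukotriene synthesis (-0.49), and Arg1, arginase (-0.35). The list's median difference was -0.11, with 4 genes higher and 7 lower in SNc. A further 12 genes of the list were on the array but below the filter, among them the defining markers Aif1, Csf1r and Itgam. Csf1r, the receptor that microglia need to survive, read 8.33 to 25.9 in SNc and 5.32 to 14.5 in VTA. The summed signal of the 23 genes ran from 1708 to 2685 in SNc and from 1543 to 3046 in VTA, and Ctss alone made up a large share of it.

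Of the cathepsins and lysosomal genes, to which Ctss belongs, 6 of 10 tested were higher in SNc and 0 passed in limma, with 2 at an unadjusted p under 0.05, near the 15.4% of all probe sets. Ctsd, cathepsin D, had 902.5 ± 211.7 in SNc and 643.6 ± 112.3 in VTA (difference 0.47, SE 0.16, adjusted p = 0.14). Psap, the precursor of the saposins, differed by 0.32 (SE 0.13). Of 7 MHC class II genes, which share antigen presentation with Cd74, 0 passed in limma and 0 reached 0.05 unadjusted. RT1-Da had the smallest p, with 60.7 ± 25.1 in SNc and 117.9 ± 110.1 in VTA (difference -0.59, SE 0.30). The class II sum was 1246 in VTA 3 and 756.3 to 835.5 in the other VTA arrays, against 642.9 to 862.8 in SNc.

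Interferons are known to induce Serping1, and genes of that response were also looked at. Of 8 tested, 6 were lower in SNc and 0 passed in limma, with Irf1 (difference -0.58, SE 0.20, adjusted p = 0.141) and Ifitm3 (-0.42, SE 0.17) at an unadjusted p under 0.05, a share to be read against the 15.4% of all probe sets. Of 11 genes of MHC class I and its peptide supply, 8 were lower in SNc, 0 passed in limma and 0 reached 0.05 unadjusted. Psmb8, a subunit of the immunoproteasome, came first (-0.53, SE 0.26).

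Markers of other cells that could lie beside the captured neurons differed as follows. The summed signal of 9 oligodendrocyte genes ran from 6315 to 10501 in SNc and from 8604 to 12981 in VTA, with 7 of 8 tested genes lower in SNc and 0 past the threshold in limma (1 had an unadjusted p under 0.05). Of 18 genes of vessels, pericytes and meninges, 12 were lower in SNc and 0 passed in limma (2 had an unadjusted p under 0.05), and the sum was 1630 to 2719 in SNc and 1596 to 6166 in VTA. For 12 astrocyte genes the sum was 7937 to 10249 in SNc and 7543 to 11695 in VTA, with 1 gene past the threshold, Ntsr2, higher in SNc (difference 0.62, adjusted p = 0.0428 in limma). Blood cell markers summed to 170.9 to 420.8 in SNc and 249.5 to 1365 in VTA. The part of these cells in the Serping1 difference was not tested. Counts of genes lower in SNc, here and in the lists above, are to be read against the median difference over all probe sets tested. That median was -0.04, and 0.05 after median centring, and the share of all genes lower in SNc was not worked out.

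The genes whose pattern was most like that of Serping1 were sought among 3220 genes past the filter, over the 15 arrays after each region's mean was taken off. They were Syngr2 (r = 0.82), Rassf2 (0.80), Gucy1b2 (0.77), C4h2orf68 (0.74) and RT1-S3, an MHC class I gene (0.74). By the same measure r was 0.24 with C1qc, 0.09 with Cx3cr1 and 0.05 with Ctss. These came 860th, 1452nd and 1608th in that order, with Serping1 itself counted as first. For C1qb the nearest of 3221 genes were Rhoc (0.85), Ptn (0.80), Tacr2 (0.76), Exoc2 (0.75) and Etfdh (0.74), with Serping1 at 0.49 and Ctss at 0.29. The array median differed between arrays and was not taken off in these comparisons, and the values are descriptions.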

How the data were processed

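The deposited table gives 1 linear intensity per probe set and array. Judged from the deposited values, the authors brought every array to a 2% trimmed mean of 150.2. The software behind these intensities is not given in the sources used here. Of 8799 probe sets, 59 controls were left out. Symbols came from the platform annotation, with 7006 probe sets having 1 symbol, 308 several and 1426 none, and 6985 matched the rat gene table of GRCr8, used for names only.

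The deposited intensities were used as log2(intensity + 16). The lowest 40% of probe sets by mean log2 value were left out. The other 5244 were fitted in R 4.3.3 by limma 3.58.1, with moderated two-sided tests from eBayes and a Benjamini-Hochberg adjusted threshold of 0.05. Intervals are limma's at 95%. Probe sets below the filter take theirs from a fit of all 8740. A gene stood for its brightest probe set by mean log2 value. Correlations used exact permutation over all pairings in SciPy 1.17.1. The procedures were tested on simulated data.

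The members and gene lists were chosen with earlier results of these data known. Genes named besides the members came from those of each list past the threshold, its 3 smallest p, and the 5 of highest r with Serping1 or C1qb. Not every gene so selected is described above. Gch1, of the dopamine neuron list, also passed the threshold and was higher in VTA (difference -1.34, SE 0.21, adjusted p = 0.00163 in limma). Th was a check of the capture. C5ar1, Csf1r, Itgam, C1s and the second probe set of Bdkrb1 were named outside that rule. Alternatives were other offsets, filters and scalings, array weights, blocks by replicate number and leaving out each array. Gfap was not analysed here.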

Additional observations from a re-analysis of the deposited data

Results flagged for a closer look

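Among the 34 groups formed by 17 probe sets in 2 regions, 4 held an array far from the others, where chance alone gives about 5% of groups. The measure was the gap to the nearest array as a share of the group's range, on the log2(signal + 16) scale. The probe set of C3 named X52477_at had SNc 7 at 22.5, with the next SNc array at 8.81 (share 0.616). The other C3 probe set, M29866_s_at, also had SNc 7 apart, at 7.18 with the next at 3.64 (share 0.573). In VTA the same probe set had VTA 5 at 17.5, with the next at 4.53 (share 0.817). The Cd74 probe set X14254cds_g_at had VTA 2 at 5.78, with the next VTA array at 3.93 (share 0.597). All 3 probe sets were below the filter on low signal.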

How the results depend on the processing

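The difference of Serping1 kept its direction in all 26 alternative fits, from -1.93 (offset of 1) to -0.68. It kept its call in each except the covariate for the array median, which was added after the data were seen (adjusted p = 0.313 against 0.0091 in limma with no covariate, and 0.00189 to 0.313 over the alternatives). As the gene was picked with this difference known, its calls are a description. With the lowest 60% of probe sets left out it was not among those tested. The total of 104 probe sets called was 60 with an offset of 1, 184 with array weights and 31 with that covariate, and ran from 56 to 115 when single arrays were left out. It fell by over 1.5 times without SNc 2 (69), SNc 3 (56), SNc 4 (68), VTA 1 (66), VTA 2 (59), VTA 3 (68), VTA 5 (62) or VTA 6 (64). After median centring 67 were higher in SNc and 37 lower, against 44 and 60, and the median difference was 0.05 in place of -0.04. No relation between members passed in any alternative, but the sign of r of Serping1 changed under some setting in 7 of its 14 relations. The labels do not say whether the replicate numbers pair the arrays. Same-numbered arrays had correlations of deviations from 0.04 to 0.25, with 5 of 7 over 0.1. Of the 7 SNc arrays whose number a VTA array shares, 3 were closest to that VTA array. For the other 4 it came second. This is a hint of pairing from the data and not from the labels, and the main fit leaves pairing out. With the replicate number as a fixed block, 99 probe sets were called and Serping1 differed by -1.40, and as a random block 153 and -1.34. In the correlations, taking differences of same-numbered arrays as the replicate block gave 0 relations past the threshold. Differences of the dim genes are limited by signal near the floor.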
